A study of Homo sapiens with 6 samples.

Results

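Ephrins, Eph receptors, semaphorins, plexins and neuropilins are among the cell surface and secreted guidance proteins of human cells. Their genes were followed here in PC-9 cells with and without knockdown of IFITM3. They were taken by symbol from the gene column of the count table: every EPHA, EPHB, EFNA and EFNB gene with a number, every semaphorin and plexin gene, NRP1 and NRP2, without antisense and pseudogene rows. The table held 53 such genes among 26485 symbols, namely 14 Eph receptors, 8 ephrins, 20 semaphorins, 9 plexins and 2 neuropilins.

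PC-9 is an EGFR-mutant line of non-small cell lung cancer, and the study asks how IFITM3, an interferon-induced membrane protein, bears on MET, AKT signalling and resistance to osimertinib, a drug against mutant EGFR. The shIFITM3 group is PC-9 cells stably expressing a short hairpin RNA against IFITM3, and the shControl group is PC-9 cells labelled as stably expressing a control hairpin, with 3 biological replicates each. Both groups grew in the same serum-containing medium, and no drug is named in the labels. The columns of the table call the control ShEV, so these cells may carry a control hairpin or an empty vector, and how many separately infected populations the replicates represent is not given in the sources used here. An effect of the hairpin on other transcripts cannot be told apart from an effect of losing IFITM3.

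Total counts were 21965506 to 23852371 in the shIFITM3 libraries and 21342028 to 77228760 in the shControl libraries, the largest being shControl replicate 2. Levels are given as CPM, counts per 1000000 on library sizes scaled by the TMM method. IFITM3 had 10.4, 12.9 and 9.75 CPM in shIFITM3 replicates 1, 2 and 3, against 57.0, 60.5 and 62.8 CPM in shControl replicates 1, 2 and 3, so the hairpin's target was low in all 3 libraries labelled as knockdown. Of 8 epithelial marker genes all were tested and none was under 1 CPM in every library. Their summed levels were 8629 to 8846 CPM in shIFITM3 and 9980 to 10112 CPM in shControl. By an edgeR adjusted p under 0.05, 3 of them fell on the log2 scale, CDH1 (-0.60), KRT8 (-0.50) and KRT18 (-0.29). By the same rule 2 rose, EPCAM (0.09) and CLDN4 (0.45). Markers of cells known for guidance signalling were in part near 0, with 4 of 8 endothelial and 4 of 8 neuronal markers under 1 CPM in every library and SNAP25 and STMN2 at 0. The summed neuronal list was nevertheless at 164 to 171 CPM in shIFITM3 and 130 to 138 CPM in shControl. Most of it was MAP2, at 87.7 CPM in shIFITM3 and 46.6 CPM in shControl, and TUBB3, at 74.4 and 84.8 CPM. By an edgeR adjusted p under 0.05, 3 of its 5 tested genes rose on the log2 scale, MAP2 (0.92), NEFL (1.86) and SYT1 (1.13). TUBB3 fell (-0.19). NEFL and SYT1 were scarce, at 2.43 and 2.1 CPM in shIFITM3 and 0.643 and 0.909 CPM in shControl. Over all tested genes 27.7% rose and 28.4% fell. The summed endothelial list was at 20.8 to 22.01 CPM in shIFITM3 and 18.4 to 22.7 CPM in shControl, most of it ESAM at 15.6 CPM in shIFITM3 and 16.3 CPM in shControl, while of its other 3 tested genes KDR (3.03) and CDH5 (1.68) rose and PECAM1 (-1.66) fell on the log2 scale. Of the fibroblast markers 7 of 8 were under 1 CPM in every library, with DCN and LUM at 0. Their sums were 9.996 to 13.9 CPM in shIFITM3 and 9.21 to 10.51 CPM in shControl, and COL1A1 rose (0.29 on the log2 scale). Of the leukocyte markers 6 of 8 were under 1 CPM in every library, with none at 0 in all libraries. Their sums were 80.4 to 87.6 CPM in shIFITM3 and 66.8 to 74.3 CPM in shControl. Most of this was CD68, at 75.9 CPM in shIFITM3 and 65.8 CPM in shControl. Both tested leukocyte genes, CD68 (0.20) and ITGAM (1.29), rose on the log2 scale. The part of these markers in the results was not tested, and in bulk RNA fewer cells of a type and less RNA per cell cannot be told apart.

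Ephrins are membrane-bound ligands, the A class held by a lipid anchor and the B class crossing the membrane, and they meet Eph receptor tyrosine kinases on touching cells, so that signals run into both. Semaphorins are secreted (class 3) or membrane-bound ligands of plexins, and class 3 members mostly need a neuropilin as the ligand-binding partner of an A-type plexin. Plexins pass the signal to the cytoskeleton and to adhesion sites, and in epithelia and carcinomas these systems are known for roles in cell sorting, contact repulsion, adhesion and migration.

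Of the 53 genes 45 had enough counts to be tested, and 8 did not. A gene is said here to rise or fall where its edgeR quasi-likelihood p, adjusted over all 14018 tested genes by the Benjamini-Hochberg method, was under 0.05. By that rule 23 of the 45 changed (51.1%), where 56.1% of all tested genes did. The directions were 8 rises and 15 falls, which is 17.8% and 33.3% of the tested members, against a background of 27.7% of all tested genes rising and 28.4% falling. The median log2 fold change of shIFITM3 over shControl was -0.08 over the 45 genes and -6.3e-05 over all tested genes, and the median size of the change was 0.29 and 0.25. Only NRP2 and SEMA6C among the 45 passed with a change of at least 2-fold, 1 in each direction, while 6.52% of all tested genes did, 4.83% upward and 1.69% downward. The groups' CPM ranges did not overlap in 27 of the 45 genes, 60.9% being the share over all tested genes. The share of these genes that changed was thus near the background, and the results lie in which members moved and in how members of a family differed.

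**Figure D1:**
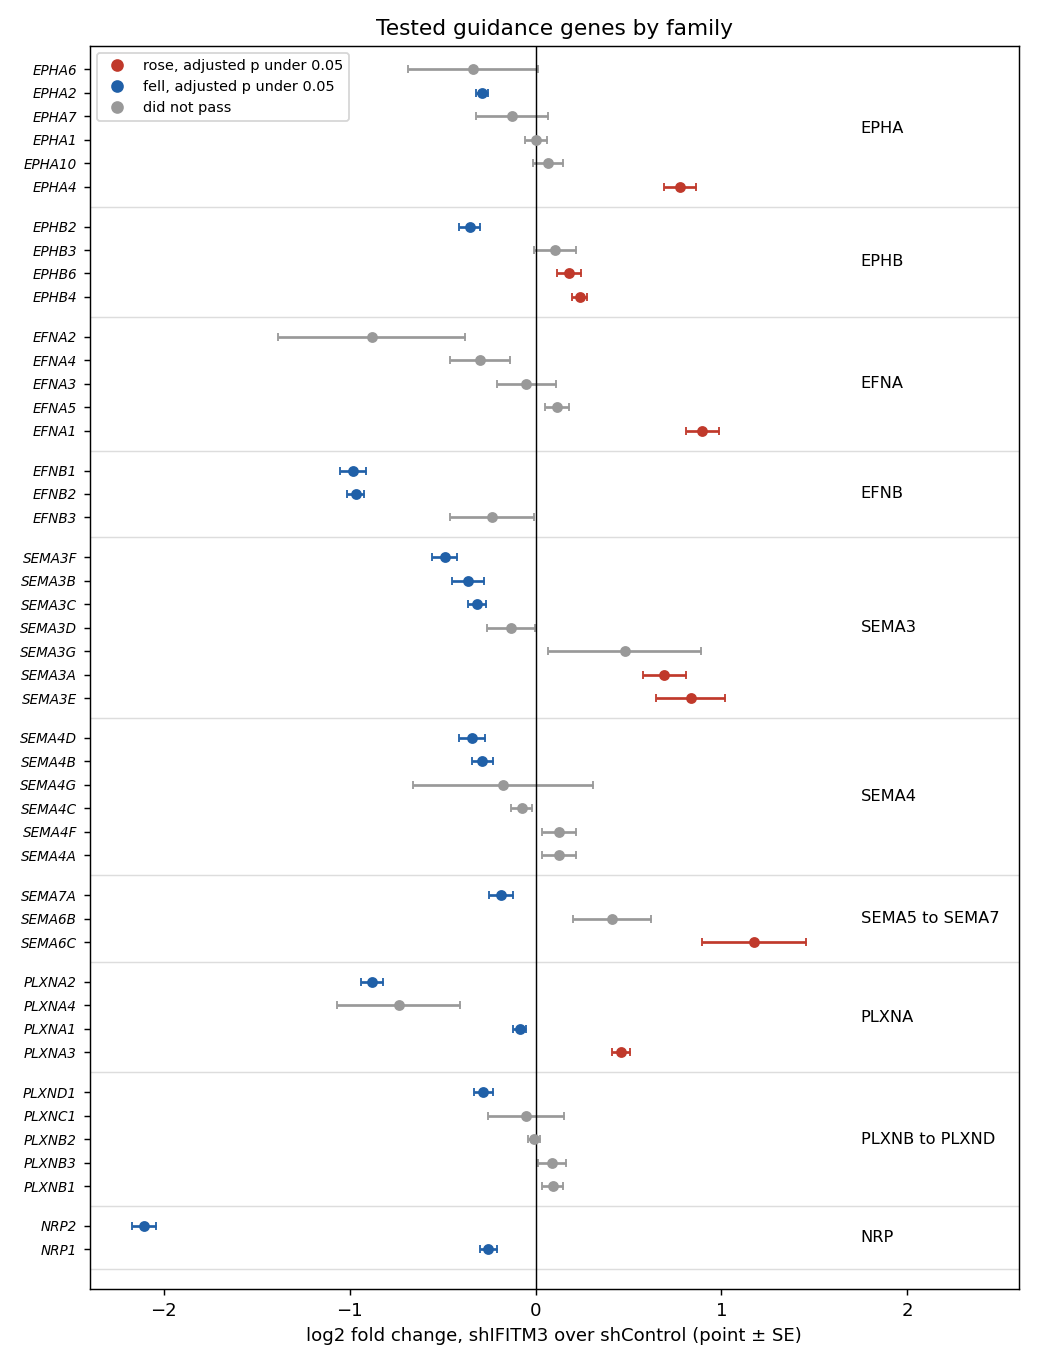
Log2 fold change of shIFITM3 over shControl (horizontal axis, point with its SE) for each of the 45 tested guidance genes, grouped by family down the page, with rises in red, falls in blue and genes that did not pass in grey. NRP2 lies farthest to the left at -2.11, EFNB1, EFNB2 and PLXNA2 are the next of the genes that fell, at -0.98, -0.97 and -0.88, and EFNA1, SEMA3E, EPHA4 and SEMA3A lie to the right together with the weakly expressed SEMA6C at 1.18.

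Among the ephrin ligands an A-class gene rose and B-class genes fell. Of 5 tested A-class genes 1 rose (20%), EFNA1, and none fell. Of the 3 B-class genes 2 fell (66.7%), EFNB1 and EFNB2, and none rose. Over all tested genes 27.7% rose and 28.4% fell, so the A-class share that rose was below the background. EFNA1 (chromosome 1, 155127876 to 155134899, GRCh38), a ligand of EPHA2, had 19.4, 21.9 and 22.4 CPM in the shIFITM3 libraries, against 11.7, 11.3 and 11.3 CPM in the shControl libraries. All 3 knockdown libraries lay above all 3 control libraries, with a log2 fold change of 0.90 and an SE of 0.089 (edgeR adjusted p = 7.29e-09). EFNB2 (chromosome 13, 106489745 to 106535662), the ligand of EPHB4 in the vascular system, had 58.8, 55.3 and 56.1 CPM in shIFITM3, against 113, 107 and 113 CPM in shControl. Its groups were far apart, and the log2 fold change was -0.97 with an SE of 0.046 (edgeR adjusted p = 9.07e-15). EFNB1 (chromosome X, 68829021 to 68842160) had 25.1, 26.7 and 21.6 CPM in shIFITM3, against 48.0, 49.0 and 47.6 CPM in shControl. It too had no overlap between the groups, with a log2 fold change of -0.98 and an SE of 0.068 (edgeR adjusted p = 1.13e-11). EFNB2 shares 1303 bases of exon with an antisense gene on the other strand in GENCODE release 29, and since the strand setting of the counting is not given, reads of the pair cannot be told apart.

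The other ephrin genes did not pass. EFNA5, also an A-class ligand, had 28.6, 29.7 and 31.1 CPM in shIFITM3, against 27.9, 26.8 and 28.0 CPM in shControl. The ranges were apart by a narrow margin, and the log2 fold change was 0.12 with an SE of 0.066 (edgeR adjusted p = 0.142). EFNA4 had 3.77, 3.96 and 5.61 CPM in shIFITM3, against 5.70, 5.25 and 5.58 CPM in shControl. The third knockdown library lay within the control range, so that the log2 fold change was -0.30 (edgeR adjusted p = 0.121) with all libraries and the gene fell when shIFITM3 replicate 3 was left out (edgeR adjusted p = 0.0157). EFNB3 had 1.999, 2.30 and 1.93 CPM in shIFITM3, against 1.98, 2.69 and 2.52 CPM in shControl (log2 fold change -0.23, SE 0.224, edgeR adjusted p = 0.393). EFNA3 (-0.05) and the scarcely expressed EFNA2 (-0.88, SE 0.504) did not pass either. EFNA3 and EFNA4 share exons with a joint transcript of the same strand in the annotation, which makes their separate counts uncertain.

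Within a library the ratio of counts of 2 genes does not depend on how libraries are scaled. The ratios given here were chosen after the values were seen and are descriptions with no test. The ratio of EFNA1 to EFNB2 counts was 0.330, 0.395 and 0.400 in shIFITM3, against 0.104, 0.105 and 0.0998 in shControl. Levels per kilobase of exon set different genes side by side only roughly. The length used joins all annotated exons of a gene, whichever transcripts the cells make, and the SD does not cover error in that length. Per kilobase EFNB2 was at 11.3 ± 0.369 CPM in shIFITM3 and 22.2 ± 0.706 CPM in shControl (SD, n = 3 each). EFNA1 was at 11.03 ± 0.837 CPM per kilobase in shIFITM3 and 5.94 ± 0.135 in shControl, and EFNB1 at 7.38 ± 0.790 in shIFITM3 and 14.5 ± 0.227 in shControl. In control cells EFNB1 and EFNB2 therefore stood above EFNA1, and in knockdown cells EFNA1 and EFNB2 lay within their spread of each other. The summed level of the 3 B-class genes was 83.3 ± 3.30 CPM in shIFITM3 and 162 ± 2.56 CPM in shControl, a ratio of 0.515. That of the 5 A-class genes was 60.96 ± 3.42 CPM in shIFITM3 and 50.7 ± 2.29 CPM in shControl, a ratio of 1.203. Of the A-class sum, EFNA1 alone made up 21.2 CPM in shIFITM3 and 11.4 CPM in shControl.

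The bases before the annotated start of these 3 ligand genes are shown because the B-class pair moved together and EFNA1 the other way. They come from the RefSeq promoter table of GRCh38.p14, cover the 250 bases ahead of the gene's start and read 5′ to 3′ on the gene's strand. Capitals mark each match of GGGCGG on either strand (CCGCCC when reversed), the GC box bound by SP1-type factors, and overlapping matches are each counted. EFNA1 lies at chr1:155127626-155127875 on the plus strand, EFNB1 at chrX:68828771-68829020 on the plus strand and EFNB2 at chr13:106535663-106535912 on the minus strand.
EFNA1: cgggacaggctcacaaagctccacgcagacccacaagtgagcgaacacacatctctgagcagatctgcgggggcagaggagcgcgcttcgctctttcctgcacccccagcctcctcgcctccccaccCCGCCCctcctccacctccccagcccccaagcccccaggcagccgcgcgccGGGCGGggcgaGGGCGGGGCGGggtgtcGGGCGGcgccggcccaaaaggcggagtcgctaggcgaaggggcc
EFNB1: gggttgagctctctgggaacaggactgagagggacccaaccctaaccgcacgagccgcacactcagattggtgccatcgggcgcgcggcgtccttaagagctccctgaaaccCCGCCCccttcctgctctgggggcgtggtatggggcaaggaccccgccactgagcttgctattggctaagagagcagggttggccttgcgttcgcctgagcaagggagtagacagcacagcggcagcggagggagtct
EFNB2: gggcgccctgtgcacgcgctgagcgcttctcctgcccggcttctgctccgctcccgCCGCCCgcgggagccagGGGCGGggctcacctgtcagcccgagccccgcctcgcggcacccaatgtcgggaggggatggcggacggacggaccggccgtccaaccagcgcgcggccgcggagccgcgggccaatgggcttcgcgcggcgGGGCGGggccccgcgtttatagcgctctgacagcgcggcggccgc
The EFNA1 window held 5 matches, EFNB1 had 1 and EFNB2 had 3, and EFNB2 also held 1 match of TATAAA on either strand. All 3 windows were rich in G and C, at 73.2% in EFNA1, 63.6% in EFNB1 and 78.4% in EFNB2. Of the 53 guidance genes 47 matched the table, with 74 annotated starts between them, and 54 of those windows (73%) held GGGCGG, compared with 42.6% of the 35116 windows of all genes. TATAAA was in 4.05% of the guidance windows and in 10.7% of all windows. These matches are descriptions of letters and show no binding, and the guidance windows also had more G and C, with medians of 65.8% and 58% for all windows. Counted by gene, 43 of the 47 guidance genes with an entry held the GC box in at least 1 window. Among them were all 14 genes that fell and 6 of the 7 that rose, of those with an entry. With so few genes lacking it, its presence could not have separated the directions.

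Eph receptors, the kinases that ephrins activate, changed in both directions. Of 10 tested receptor genes 3 rose (EPHA4, EPHB4 and EPHB6) and 2 fell (EPHA2 and EPHB2). That is 30% and 20%, beside 27.7% and 28.4% of all tested genes. Per kilobase the most abundant receptor was EPHA2, at 44.7 ± 0.633 CPM in shIFITM3 and 54.5 ± 0.1997 CPM in shControl, followed by EPHB4 at 29.5 ± 0.843 CPM in shIFITM3 and 25.0 ± 0.536 CPM in shControl. EPHB6 came next, at 12.3 ± 0.952 CPM per kilobase in shIFITM3 and 10.8 ± 0.721 in shControl, then EPHA1 at 10.2 ± 0.555 in shIFITM3 and 10.2 ± 0.146 in shControl, and these neighbours lay within their spread of each other in shControl.

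EPHA2 (chromosome 1, 16124337 to 16156069), the main receptor of EFNA1 in epithelia, had 175, 179.6 and 177 CPM in shIFITM3, against 215, 217 and 217 CPM in shControl. The groups did not overlap, and the fall was small, with a log2 fold change of -0.29 and an SE of 0.034 (edgeR adjusted p = 1.17e-07). EPHA4 (chromosome 2, 221418027 to 221574202), which binds ligands of both classes, had 21.9, 22.5 and 20.8 CPM in shIFITM3, against 13.8, 12.5 and 11.9 CPM in shControl. Every knockdown library was above every control library, and the log2 fold change was 0.78 with an SE of 0.087 (edgeR adjusted p = 5.19e-08). EPHA4 overlaps an antisense gene by 242 bases of exon. The ratio of EPHA4 to EPHA2 counts was 0.125, 0.125 and 0.118 in shIFITM3, against 0.0642, 0.0576 and 0.0551 in shControl. EPHA6 was close to the detection limit, with 0.636, 0.913 and 0.753 CPM in shIFITM3, against 0.707, 1.17 and 0.912 CPM in shControl, overlapping ranges and an edgeR adjusted p of 0.431. EPHA1 (0.00), the kinase-inactive EPHA10 (0.07) and EPHA7 (-0.13) did not pass.

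EPHB4 (chromosome 7, 100802565 to 100827523), a receptor of EFNB2, had 126, 133 and 126 CPM in shIFITM3, against 107, 111 and 108 CPM in shControl. It lay higher in all 3 knockdown libraries, with a log2 fold change of 0.24 and an SE of 0.040 (edgeR adjusted p = 2.1e-05), so this receptor and ligand went in opposite directions. The ratio of EFNB2 to EPHB4 counts was 0.466, 0.417 and 0.445 in shIFITM3, against 1.06, 0.964 and 1.05 in shControl. EPHB2 (chromosome 1, 22710838 to 22921500), a receptor of B-class ephrins, had 46.5, 45.8 and 39.9 CPM in shIFITM3, against 57.6, 56.3 and 55.1 CPM in shControl. All its knockdown libraries were below the control libraries (log2 fold change -0.35, SE 0.057, edgeR adjusted p = 1.26e-05), so EPHB2 went in the same direction as EFNB1 and EFNB2. EPHB6 (chromosome 7, 142855076 to 142871093), whose kinase domain is inactive, had 49.1, 53.1 and 45.5 CPM in shIFITM3, against 39.9, 45.1 and 44.6 CPM in shControl. The lowest knockdown library was only just above the highest control library, and the rise (log2 fold change 0.18, edgeR adjusted p = 0.0165) did not pass without shIFITM3 replicate 2 (edgeR adjusted p = 0.12) or without shControl replicate 1 (edgeR adjusted p = 0.0832). EPHB3 had a log2 fold change of 0.10 and did not pass.

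**Figure D2:**
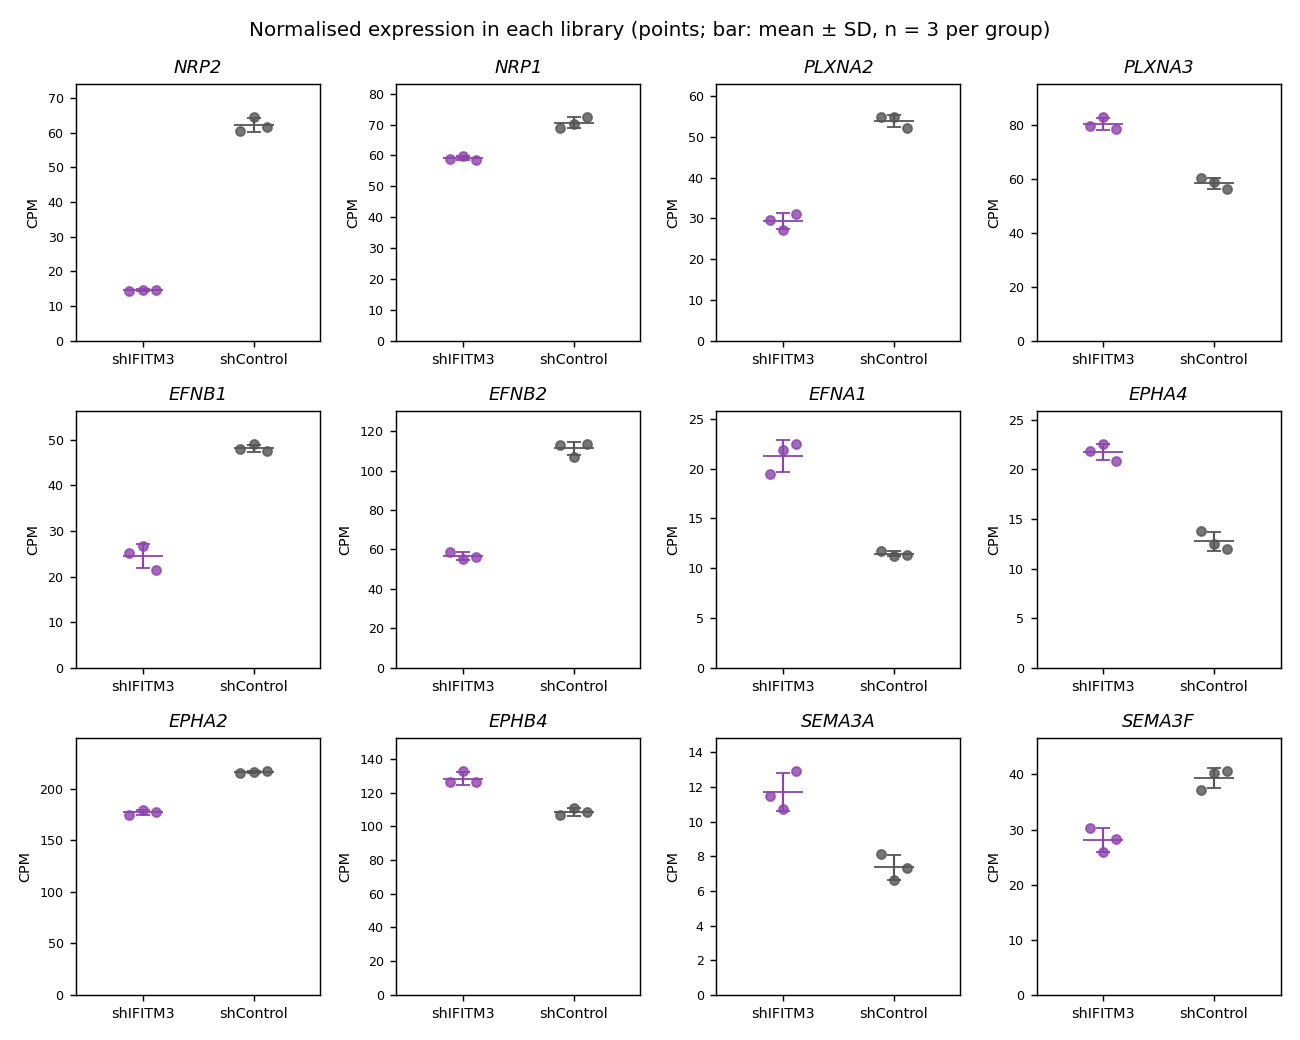
CPM on TMM-scaled library sizes (vertical axis, starting at 0) of 12 guidance genes in each shIFITM3 library (left, purple) and each shControl library (right, grey), with the mean and SD of each group of 3. NRP2, EFNB1, EFNB2 and PLXNA2 show the lower knockdown levels given in the text, and EFNA1, EPHA4, PLXNA3 and SEMA3A the higher ones. The 12 genes were picked from those that changed with ranges apart, so the lack of overlap here comes from the choice. Ranges did not overlap in 27 of the 45 tested guidance genes and in 60.9% of all tested genes.

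Among the class 3 semaphorins, the secreted ligands, 3 of 7 fell and 2 rose. That is 42.9% and 28.6%, beside 28.4% and 27.7% of all tested genes. SEMA3F (chromosome 3, 50155058 to 50189075), which signals through NRP2, had 30.3, 25.9 and 28.2 CPM in shIFITM3, against 37.2, 40.3 and 40.5 CPM in shControl. Its groups did not overlap, with a log2 fold change of -0.49 and an SE of 0.067 (edgeR adjusted p = 1.05e-06). SEMA3C (chromosome 7, 80742538 to 80922389), the most abundant semaphorin gene per kilobase in both groups, had 100.3, 87.2 and 96.2 CPM in shIFITM3, against 122, 116 and 116 CPM in shControl. It was lower in every knockdown library (log2 fold change -0.32, SE 0.047, edgeR adjusted p = 4.08e-06). SEMA3A (chromosome 7, 83955777 to 84492725), the classical ligand of NRP1, went the other way, with 11.5, 10.7 and 12.9 CPM in shIFITM3, against 8.11, 6.64 and 7.33 CPM in shControl. All its knockdown libraries were above the control libraries (log2 fold change 0.69, SE 0.116, edgeR adjusted p = 1.97e-05). SEMA3E, which can bind PLXND1 without a neuropilin, rose by 0.83 (edgeR adjusted p = 0.000494), and SEMA3B had a log2 fold change of -0.36 (edgeR adjusted p = 0.000855). SEMA3D (-0.13) and SEMA3G (0.48, SE 0.411, at most 73 counts) did not pass. The ratio of SEMA3A to SEMA3F counts was 0.380, 0.415 and 0.457 in shIFITM3, against 0.218, 0.165 and 0.181 in shControl.

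Of the 6 class 4 semaphorin genes, which encode transmembrane ligands, 2 fell (33.3%, beside 28.4% of all tested genes) and none rose. SEMA4D (chromosome 9, 89360787 to 89498113), the ligand of PLXNB1, had 24.6, 28.0 and 29.7 CPM in shIFITM3, against 35.7, 35.2 and 33.7 CPM in shControl. No knockdown library reached the control range (log2 fold change -0.34, SE 0.069, edgeR adjusted p = 0.000186). SEMA4B (chromosome 15, 90184920 to 90229661) had 43.4, 43.6 and 44.4 CPM in shIFITM3, against 49.4, 54.9 and 55.3 CPM in shControl. It was lower in all 3 knockdown libraries (log2 fold change -0.29, SE 0.055, edgeR adjusted p = 0.000101). SEMA4A had 14.0, 14.7 and 13.9 CPM in shIFITM3, against 12.7, 13.2 and 13.1 CPM in shControl, and did not pass although the ranges were apart (log2 fold change 0.13, SE 0.091, edgeR adjusted p = 0.242). SEMA4F (0.13), SEMA4C (-0.07) and SEMA4G (-0.18, at most 74 counts) did not pass, and SEMA4G overlaps MRPL43 on the opposite strand.

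Of classes 5 to 7 only 3 of 7 genes had enough counts. SEMA7A (chromosome 15, 74409289 to 74433958), a membrane-anchored ligand of integrins and PLXNC1, had 27.4, 28.5 and 26.1 CPM in shIFITM3, against 31.0, 31.5 and 30.8 CPM in shControl. The groups did not overlap, and the small fall (log2 fold change -0.19, SE 0.065, edgeR adjusted p = 0.0168) did not pass without shIFITM3 replicate 3 (edgeR adjusted p = 0.077) or without shControl replicate 2 (edgeR adjusted p = 0.0687). SEMA6C (chromosome 1, 151131685 to 151146631) had 50, 48 and 46 counts in shIFITM3, against 22, 65 and 26 counts in shControl, where the second control library was sequenced more deeply. These are 2.27, 2.09 and 1.93 CPM in shIFITM3, against 1.04, 0.844 and 0.949 CPM in shControl, all knockdown libraries being higher (log2 fold change 1.18, SE 0.281, edgeR adjusted p = 0.000982). SEMA6B had 3.998, 4.44 and 4.65 CPM in shIFITM3, against 2.03, 3.26 and 4.42 CPM in shControl. Its control libraries were widely spread (log2 fold change 0.41, edgeR adjusted p = 0.0962), and it rose without shControl replicate 3 (edgeR adjusted p = 0.015) and with all libraries thinned to the smallest total (edgeR adjusted p = 0.0278).

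The largest change of all 45 genes was in a semaphorin receptor. NRP2 (chromosome 2, 205682501 to 205798131), the co-receptor of SEMA3F and also a receptor of VEGF-C, had 312, 334 and 352 counts in shIFITM3, against 1283, 4967 and 1690 counts in shControl. The levels were 14.2, 14.5 and 14.7 CPM in shIFITM3, against 60.5, 64.5 and 61.7 CPM in shControl. The knockdown libraries lay close together and far below the control libraries, at 0.232 times the control level (log2 fold change -2.11, SE 0.062, edgeR adjusted p = 1.1e-18). NRP1 (chromosome 10, 33177493 to 33334667), the related co-receptor of SEMA3A and of VEGF-A, had 58.9, 59.9 and 58.6 CPM in shIFITM3, against 68.9, 70.3 and 72.4 CPM in shControl. It also fell in every knockdown library but by little, to 0.838 times the control level (log2 fold change -0.25, SE 0.046, edgeR adjusted p = 5.44e-05). Per kilobase NRP2 was at 1.41 ± 0.0273 CPM and NRP1 at 5.47 ± 0.0622 CPM in knockdown cells, while in control cells the neuropilins were nearer each other, with 6.05 ± 0.202 CPM for NRP2 and 6.52 ± 0.164 CPM for NRP1 (SD, n = 3 each). The ratio of NRP2 to NRP1 counts was 0.241, 0.242 and 0.251 in shIFITM3, against 0.878, 0.918 and 0.851 in shControl. Each neuropilin gene overlaps an antisense gene in the annotation, NRP2 by 147 bases of exon and NRP1 by 561.

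**Figure D3:**
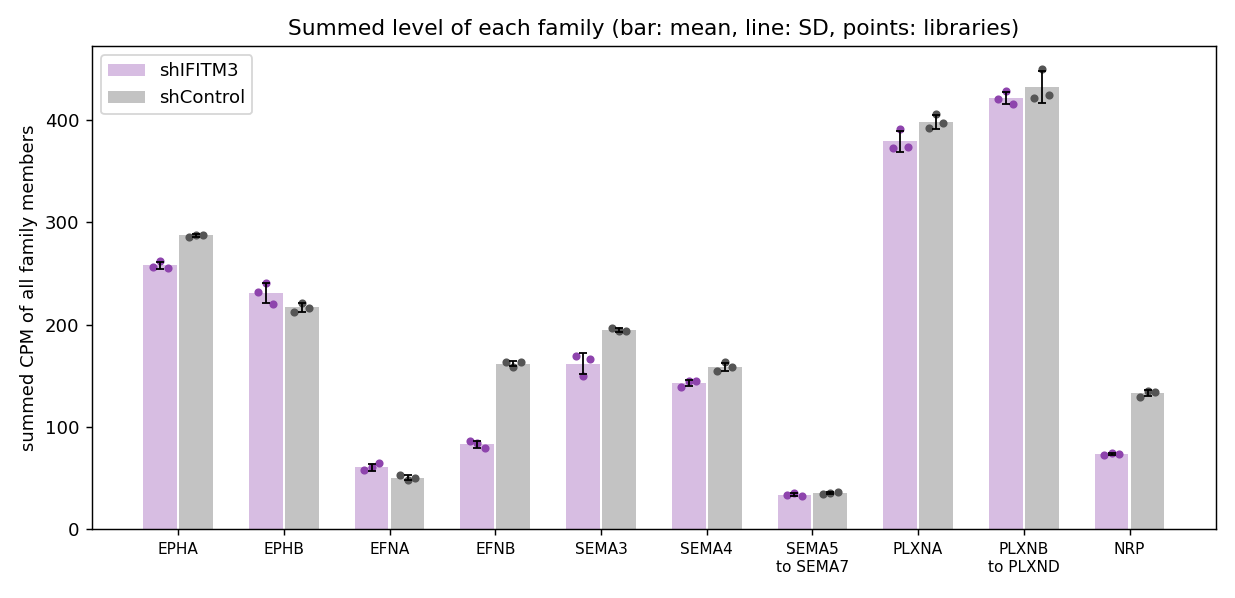
Summed CPM of all members of each family (vertical axis) in shIFITM3 (left, purple) and shControl (right, grey), with bars for the mean, lines for the SD and points for the 3 libraries of each group. The EFNB and NRP sums are lower in every shIFITM3 library and have the lowest ratios, 0.515 and 0.555. In the NRP sum, NRP2 was at 0.232 and NRP1 at 0.838 times the control level. The EPHA, SEMA3, SEMA4 and PLXNA sums are also lower in every shIFITM3 library, at ratios of 0.899, 0.832, 0.898 and 0.952. These are not falls of every member, since EPHA4, SEMA3A, SEMA3E and PLXNA3 rose. In shControl EPHA2 made up 216 of 287 CPM of the EPHA sum, SEMA3C 118 of 195 and PLXNA1 284 of 398 CPM of theirs. The EFNA sum is higher in every shIFITM3 library, while the EPHB, SEMA5 to SEMA7 and PLXNB to PLXND sums overlap between the groups.

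The A-type plexins, which carry the signal of class 3 semaphorins across the membrane, differed among themselves. PLXNA2 (chromosome 1, 208022242 to 208244384) had 29.6, 27.1 and 31.1 CPM in shIFITM3, against 54.9, 54.8 and 52.1 CPM in shControl. All knockdown libraries were well below the control range (log2 fold change -0.88, SE 0.060, edgeR adjusted p = 8.01e-12). PLXNA3 (chromosome X, 154458281 to 154477779) had 79.4, 82.8 and 78.5 CPM in shIFITM3, against 60.3, 58.7 and 56.2 CPM in shControl. It rose in all 3 knockdown libraries (log2 fold change 0.46, SE 0.047, edgeR adjusted p = 1.18e-08). The ratio of PLXNA3 to PLXNA2 counts was 2.68, 3.05 and 2.52 in shIFITM3, against 1.099, 1.07 and 1.08 in shControl.

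PLXNA1 (chromosome 3, 126983115 to 127037389), the most abundant A-type plexin gene per kilobase, had 263, 279.97 and 263 CPM in shIFITM3, against 276, 290.3 and 287 CPM in shControl. The ranges overlapped, and the fall of 0.08 on the log2 scale (edgeR adjusted p = 0.0433) was lost in 10 of 16 other settings, where its adjusted p reached 0.165. Those settings included leaving out shIFITM3 replicate 1, shIFITM3 replicate 3, shControl replicate 2 or shControl replicate 3, with edgeR adjusted p of 0.154, 0.149, 0.165 and 0.117. PLXNA4 was scarce, at most 109 counts, with a log2 fold change of -0.74 and an SE of 0.331 (edgeR adjusted p = 0.063), and it fell without shControl replicate 1 (edgeR adjusted p = 0.0391) and with all counts halved (edgeR adjusted p = 0.0423).

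Of the 5 plexins of types B to D 1 fell (20%, beside 28.4% of all tested genes). PLXND1 (chromosome 3, 129555214 to 129606676), the receptor of SEMA3E, had 65.0, 72.7 and 68.3 CPM in shIFITM3, against 79.3, 85.9 and 84.4 CPM in shControl. No library of the knockdown reached the control range (log2 fold change -0.28, SE 0.049, edgeR adjusted p = 3.51e-05), and its ligand gene SEMA3E went up. SEMA3F and its co-receptor gene NRP2, by contrast, both fell. PLXNB1 (chromosome 3, 48403854 to 48430310), the receptor of SEMA4D, had 63.5, 65.3 and 56.1 CPM in shIFITM3, against 57.1, 60.9 and 54.5 CPM in shControl. Its ranges overlapped (log2 fold change 0.09, edgeR adjusted p = 0.179), and it rose without shIFITM3 replicate 3 (edgeR adjusted p = 0.03) and with thinned libraries (edgeR adjusted p = 0.0364). PLXNB3 had 23.1, 23.0 and 21.2 CPM in shIFITM3, against 19.9, 21.9 and 21.2 CPM in shControl, with overlapping ranges and an edgeR adjusted p of 0.336, and it shares 1252 bases of exon with SRPK3 on the same strand. PLXNB2 (-0.01) and PLXNC1 (-0.05) did not pass. PLXNB2 was the most abundant plexin gene per kilobase, at 41.6 ± 0.232 CPM in shIFITM3 and 41.7 ± 1.45 CPM in shControl.

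The windows ahead of NRP2 and PLXNA2, the receptor genes with the largest falls, are shown on the same terms as those of the ephrins, with GGGCGG and CCGCCC in capitals. NRP2 lies at chr2:205682251-205682500 on the plus strand and PLXNA2 at chr1:208244385-208244634 on the minus strand.
NRP2: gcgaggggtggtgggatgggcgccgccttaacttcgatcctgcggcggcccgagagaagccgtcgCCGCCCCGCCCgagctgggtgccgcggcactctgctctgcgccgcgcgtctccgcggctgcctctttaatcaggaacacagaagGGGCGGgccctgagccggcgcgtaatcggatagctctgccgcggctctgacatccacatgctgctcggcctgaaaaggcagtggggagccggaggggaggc
PLXNA2: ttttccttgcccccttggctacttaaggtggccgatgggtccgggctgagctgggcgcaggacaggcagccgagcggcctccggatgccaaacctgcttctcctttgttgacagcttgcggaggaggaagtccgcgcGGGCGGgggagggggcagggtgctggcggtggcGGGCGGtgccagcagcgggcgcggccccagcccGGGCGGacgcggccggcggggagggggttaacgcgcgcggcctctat
Each window held 3 matches, those of NRP2 including an overlapping pair, and neither held TATAAA. G and C made up 70% of the NRP2 window and 72.4% of the PLXNA2 window.

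MET, a receptor tyrosine kinase that shares the sema domain of plexins and can associate with B-type plexins, had 1056, 1039 and 1046 CPM in shIFITM3, against 786, 759.9 and 759 CPM in shControl. The groups did not overlap (log2 fold change 0.45, SE 0.026, edgeR adjusted p = 5.99e-13). Per kilobase this was 157 CPM in shIFITM3 and 115 CPM in shControl, above every plexin gene in both groups.

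**Figure D4:**
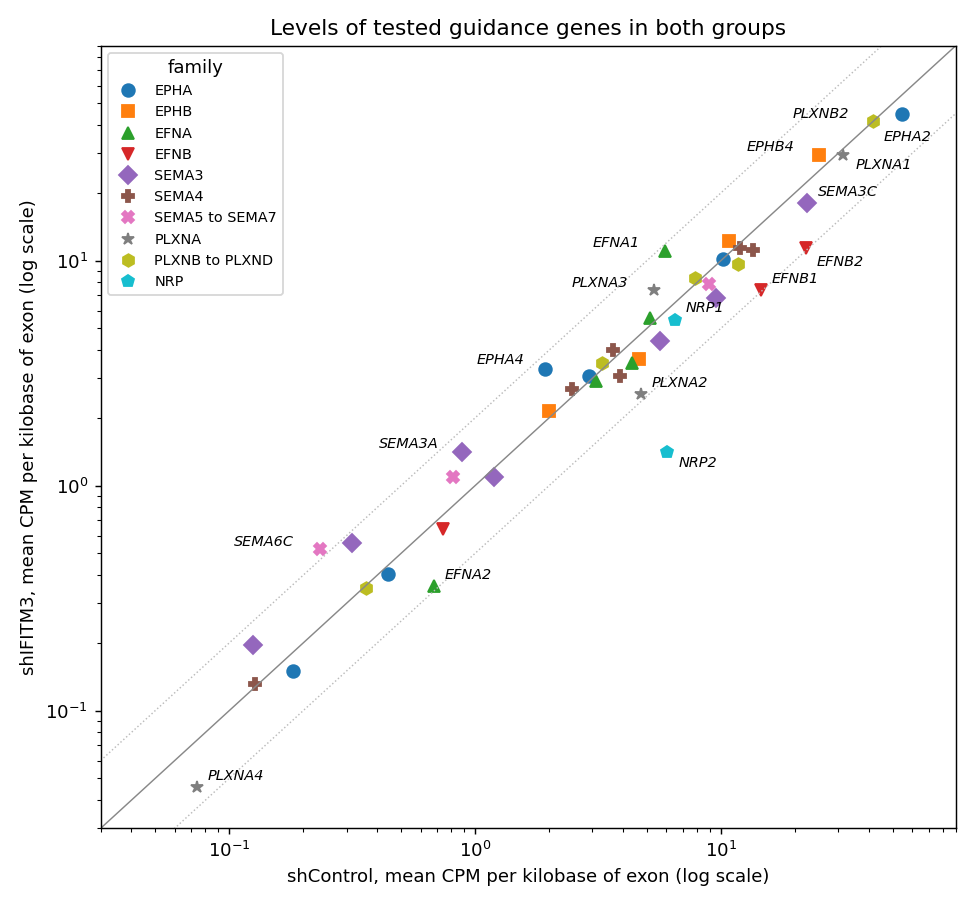
Mean CPM per kilobase of exon of each tested guidance gene in shIFITM3 (vertical axis) against shControl (horizontal axis), both on log scales, with the line of equal levels and dotted lines at a 2-fold difference. EPHA2, PLXNB2, PLXNA1 and EPHB4 are the most abundant genes in both groups, and NRP2 lies farthest below the line.

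The 8 genes with too few counts were EPHA3, EPHA5, EPHA8, EPHB1, SEMA5A, SEMA5B, SEMA6A and SEMA6D. EPHA8 and SEMA5A had no count in any library, which allows up to 3 counts, or 0.0388 CPM at the depth of shControl replicate 2 and 0.141 CPM at that of shControl replicate 1. SEMA6D had 4, 0 and 2 counts in shIFITM3, against 0 counts in each shControl library, and EPHA3 had 6, 6 and 4 counts in shIFITM3, against 0, 4 and 2 counts in shControl. The other 4 had at most 12 counts, reached by SEMA5B in shControl replicate 2. Such limits cover counting error only, and since 76.8% to 81.1% of counts between 1 and 9 were even, counts may come in pairs and the limits may be too low.

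The summed level of all Eph receptor genes was 489 ± 13.0 CPM in shIFITM3 and 504 ± 5.29 CPM in shControl, and that of all plexin genes 800.1 ± 16.0 CPM in shIFITM3 and 829 ± 22.2 CPM in shControl. Both sums differed by little, at ratios of 0.970 and 0.965, with members on either side of no change. The ephrin sum was lower in shIFITM3, at 144 ± 0.851 CPM against 213 ± 4.66 CPM in shControl, and so was the semaphorin sum, at 339 ± 7.54 CPM against 389 ± 3.31 CPM in shControl (SD, n = 3 each). Ephrin and semaphorin members, too, lay on either side of no change.

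Genes that work with these families were followed in 5 lists, chosen with earlier results known, so their shares are descriptions with no test. Of 11 tested proteases that cut guidance proteins and ligands of neuropilins, 7 rose (63.6%, beside 27.7% of all tested genes) and 2 fell, with a median log2 fold change of 0.58. FURIN, a protease that processes class 3 semaphorins, was at 245 ± 9.46 CPM in shIFITM3 and 137 ± 1.98 CPM in shControl (log2 fold change 0.84, edgeR adjusted p = 2.14e-15). VEGFC, a ligand of NRP2, was at 43.7 ± 2.68 CPM in shIFITM3 and 16.8 ± 0.673 CPM in shControl (1.39, edgeR adjusted p = 2.49e-14), and PGF, a ligand of NRP1, at 19.7 ± 1.35 CPM in shIFITM3 and 4.62 ± 0.728 CPM in shControl (2.09, edgeR adjusted p = 1.46e-13). The 2 falls were VEGFA (-0.54) and VEGFB (-0.13), chosen after their values were seen.

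Of 10 tested genes that act beside plexins or neuropilins, 8 rose (80%, beside 27.7% of all tested genes) and 1 fell, with a median of 0.44. They encode receptors and co-receptors, except for the adaptor GIPC1, and both MET and GIPC1 were among the rises. The integrin genes ITGB1 (0.50) and ITGA1 (1.24) rose, whereas the neural adhesion gene NRCAM fell, with 81.3 ± 5.51 CPM in shIFITM3 and 149 ± 2.43 CPM in shControl (-0.87, edgeR adjusted p = 5.63e-14). KDR, the VEGF receptor that pairs with neuropilins and chosen after its values were seen, rose to 2.69 ± 0.238 CPM in shIFITM3, against 0.348 ± 0.237 CPM in shControl (edgeR adjusted p = 1.84e-07), and it is also one of the endothelial markers above, whose part was not tested. Of 31 tested adaptors and effectors of Eph receptors and ephrins, 8 rose (25.8%) and 9 fell (29%), with a median of -0.01. The shares over all tested genes were 27.7% and 28.4%. GRB7, an adaptor of receptor kinases, rose by 1.49, ABL2, a cytoskeletal kinase, by 1.05 and RASA1, a Ras GTPase-activating protein that binds Eph receptors, by 0.39.

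Of 41 tested plexin and semaphorin effectors, 14 rose (34.1%) and 6 fell (14.6%), with a median of 0.05. MICAL2 (0.68), of the family of actin-oxidising enzymes downstream of plexins, its relative MICALL1 (0.54) and DPYSL2 (0.81), a collapsin response mediator of SEMA3A signalling, rose. Of 13 tested genes of the Slit-Robo, netrin and RGM families, 4 rose (30.8%) and 4 fell (30.8%), with a median of -0.0019. RGMB, a BMP co-receptor of the repulsive guidance family, rose to 70.9 ± 1.95 CPM in shIFITM3, against 24.5 ± 0.2101 CPM in shControl (1.54, edgeR adjusted p = 2.55e-17). The ligand gene NTN1 and its receptor gene UNC5A both fell, by 0.84 and 1.42 on the log2 scale. Over all 106 tested genes of the 5 lists 59.4% changed, beside 56.1% of all tested genes, with 38.7% rising and 20.8% falling, beside 27.7% and 28.4% of all tested genes.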

How the data were processed

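Raw counts by gene symbol, not normalized, were deposited for 3 shIFITM3 and 3 shControl samples. The submitters' processing notes list hg38, HISAT2 2.2.1, Subread 2.0.6 with featureCounts, SAMtools 1.20, fastp 0.23.4 and FastQC 0.12.1. Their gene annotation and strand setting are not given in those notes or in the labels. Libraries were made with a stranded mRNA kit, per the labels' protocols.

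The test was run in edgeR 4.0.16 (R 4.3.3): filterByExpr by group, TMM factors (0.995 to 1.006), glmQLFit on group and a two-sided glmQLFTest, Benjamini-Hochberg adjusted over 14018 genes. SE is the absolute log2 fold change over the square root of F. In counts simulated for this comparison (14018 genes, 100 changed at each size) 76% of 1.5-fold and 90% of 2-fold changes were recovered. In the same simulation 14 unchanged genes passed falsely. Far fewer genes changed there than the 56.1% that passed in the data. The adjustment of p was thus stricter in the simulation, and these shares need not hold for the data. Pairs of replicates had a chi-square per degree of freedom of 2.79 to 5.06, where 1 stands for sampling noise of counts that come singly. Counts that come in pairs would raise that noise level. The values thus show only that no replicate was a copy of another of its group. Exon lengths and overlaps are from GENCODE release 29, gene coordinates from RefSeq GRCh38.p14, the assembly of hg38.

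Members and lists were chosen with earlier results of these data known. Values by sample are given for the 3 tested members of each of 10 groups with the smallest p (29 genes), and from each list of partners the 3 with the smallest p, MET apart, are given by means or fold changes. DESeq2 1.42.0, limma-voom (limma 3.58.1) and the other alternatives are given in the closing section.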

Additional observations from a re-analysis of the deposited data

How the results depend on the processing

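The numbers of guidance genes that rose and fell, 8 and 15, were recomputed under 10 other settings and with each of the 6 libraries left out. The settings were scaling by RLE, by the upper quartile or by totals, testing without a filter, a filter of 50 counts in 3 samples, DESeq2, limma-voom, thinned libraries, the replicate number as a block and, chosen after seeing the data, halved counts. They gave 7 to 10 rises and 14 to 15 falls, and leaving out a library gave 7 to 9 rises and 13 to 16 falls. No guidance gene changed sign while passing the threshold. Of the 23 genes that changed, 20 passed under every setting in which they were tested, and EPHB6, SEMA7A and PLXNA1 did not. EFNA4, PLXNA4, PLXNB1 and SEMA6B passed under 1 or 2 settings only. The log2 fold change of NRP2 ranged from -2.13 to -2.08, of EFNB2 from -0.997 to -0.951 and of EFNA1 from 0.854 to 0.958. Scaling moved the median of all genes by at most 0.018 on the log2 scale. Same-numbered samples of the groups did not deviate together (r = 0.0157, 0.033 and 0.00634 across genes), and not every sample correlated best with its own number, so the numbers were not taken as pairs, and the replicate block gave 8 rises and 15 falls. The partner genes gave 40 to 44 rises and 17 to 25 falls against 41 and 22. Depth limits the scarce genes, with an SE of 0.281 for SEMA6C, 0.411 for SEMA3G and 0.504 for EFNA2.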
